A study of Mus musculus with 6 samples.

Results

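Transcripts of 10 genes, the paired zinc finger factors Bcl11a and Bcl11b and 8 genes of the T cell receptor pathway and surface, were followed in LSK cells of mouse bone marrow, the lineage-negative Kit+ Sca1+ cells that hold blood stem cells and early multipotent progenitors. All probe sets whose annotation names Bcl11a, Bcl11b, Thy1, Lck, Cd3d, Cd3e, Cd3g, Ptcra, Cd2 or Zap70 alone were taken. These were 20 of the 45037 probe sets that are no manufacturer's controls, and they covered 9 of the 10 genes. Bcl11a had 7 probe sets, Bcl11b 4, Zap70 3, and Thy1, Cd3d, Cd3e, Cd3g, Ptcra and Cd2 had 1 each. No probe set names Lck alone in the annotation used, and Lck is not analysed here.

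The arrays were Affymetrix expression arrays, 2 for each of 3 sorted groups, namely CD34+Flt3hi, CD34+Flt3- and CD34-Flt3- LSK cells of adult mice 10 to 14 weeks old. No treatment or genetic change is named, and the strain and sex are not given in the sources used here. In adult mouse marrow the CD34-Flt3- LSK fraction is known for long-term repopulating stem cells, the CD34+Flt3- fraction for short-term repopulating cells, and the CD34+Flt3hi fraction for multipotent progenitors with lymphoid bias. Whether 2 arrays of 1 group stand for different mice or different sorts is not given, and every p-value here therefore reflects array-to-array spread that may be technical. Sample titles carry 1 of 3 codes, called A, B and C here, whose meaning is not given. Replicate 2 of every group has code A, replicate 1 of CD34+Flt3hi and of CD34+Flt3- cells has code B, and replicate 1 of CD34-Flt3- cells has code C.

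All values are log2 of the deposited intensities, and a level is read only against the same probe set on other arrays or against background. Background was a log2 intensity of 4.5, below which lay 90% of the readings of 27 probe sets for Bacillus subtilis genes, and 60.3% of all probe sets were above it in CD34+Flt3hi, 60.8% in CD34+Flt3- and 60.7% in CD34-Flt3- cells. Array medians ran from 29.7 to 31.3 in linear units. Of the sort antigens, Cd34 read 11.35 and 11.34 in CD34+Flt3hi, 10.51 and 10.68 in CD34+Flt3-, and 8.78 and 9.45 in CD34-Flt3- cells. Flt3 read 12.01 and 11.75, 8.84 and 9.81, and 7.65 and 9.16 in the same groups. Kit read 9.63 and 9.22, 10.26 and 8.82, and 10.99 and 9.83, so the arrays of both Flt3- groups lay apart. The sort antigen Sca1 (Ly6a) has no probe set of its own name. In sorted populations fewer cells of a type and less RNA per cell cannot be told apart.

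The T cell receptor has no kinase of its own. Its Cd3 chains carry the signal, Lck phosphorylates them, and Zap70 binds the phosphorylated chains and passes the signal on. In the thymus the pre-T cell receptor uses an invariant chain encoded by Ptcra, and in mouse thymocytes Bcl11b is required for commitment to the T lineage. Its paralogue Bcl11a is required for lymphoid development in mice and silences embryonic and fetal globin genes in erythroid cells, and both proteins can recruit the NuRD chromatin remodelling complex. Thy1 is a glycolipid-anchored surface protein of mouse T cells that mouse stem cells also carry at a low level.

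The upstream sequences of 3 genes are shown because their transcripts had different patterns over the groups: 1 without a call in any comparison but high above background (Bcl11a), 1 called between the outer groups (Bcl11b), and 1 Cd3 chain above background on every array (Cd3e). Each is the 250 bases before a RefSeq transcript start in the assembly GRCm38.p6, read 5′ to 3′ on the gene's strand. They lie at chr11:24080445-24080694 on the plus strand for Bcl11a, at chr12:108003415-108003664 on the minus strand for Bcl11b and at chr9:45009612-45009861 on the minus strand for Cd3e. The Bcl11a and Bcl11b windows lie inside the RefSeq extents of their genes, and the Cd3e window overlaps the 5′ end of its gene. Capitals mark matches on either strand to 7 short motifs: the E-box CANNTG, the Runx motif TGTGGT, the TCF/LEF motif CTTTGA, the Ets motif AGGAAG, the GATA motif AGATAA, the GC box GGGCGG and the TATA motif TATAAA.

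Bcl11a: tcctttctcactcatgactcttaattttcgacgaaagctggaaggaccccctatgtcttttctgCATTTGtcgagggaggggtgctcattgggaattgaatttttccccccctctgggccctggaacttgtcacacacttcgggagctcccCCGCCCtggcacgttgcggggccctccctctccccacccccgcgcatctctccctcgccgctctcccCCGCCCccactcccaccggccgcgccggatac
Bcl11b: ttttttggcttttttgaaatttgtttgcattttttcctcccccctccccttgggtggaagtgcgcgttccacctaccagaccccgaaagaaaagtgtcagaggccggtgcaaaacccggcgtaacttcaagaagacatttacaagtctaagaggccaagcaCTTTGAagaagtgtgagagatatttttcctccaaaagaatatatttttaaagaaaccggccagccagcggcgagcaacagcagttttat
Cd3e: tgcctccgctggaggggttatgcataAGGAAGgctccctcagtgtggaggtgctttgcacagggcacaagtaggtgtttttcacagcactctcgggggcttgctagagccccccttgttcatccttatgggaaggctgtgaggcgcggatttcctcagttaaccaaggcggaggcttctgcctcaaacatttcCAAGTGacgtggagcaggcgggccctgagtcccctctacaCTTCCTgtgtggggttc

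The Bcl11a sequence held 1 E-box and 2 GC boxes, the Bcl11b sequence 1 TCF/LEF motif, and the Cd3e sequence 1 E-box and 2 Ets motifs, with no overlapping matches. Of the 32851 promoters of the same length in the RefSeq table, 66.2% held an E-box, 32.7% a GC box, 29.5% the Ets motif, 14.0% the Runx motif, 13.8% the TCF/LEF motif, 12.4% the TATA motif and 9.99% the GATA motif. GC content was 62% with 16 CpG for Bcl11a, 44.8% with 9 CpG for Bcl11b and 57.2% with 7 CpG for Cd3e, beside a median of 52.4% and 6 CpG over all promoters. A match is a description of the letters and not a site of binding. The table listed 11 promoters for 8 of the 10 genes and none for Thy1 or Cd2.

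Of the 20 probe sets, 11 had a group mean above background in CD34+Flt3hi, 12 in CD34+Flt3- and 15 in CD34-Flt3- cells, and 9 were above it on all 6 arrays. By gene, 5, 6 and 6 of the 9 genes had such a probe set in these groups. Bcl11a, Thy1, Cd3e and Zap70 were above background in all 3 groups, while Bcl11b, Cd3d and Ptcra were above it in some groups only. The chain gene Cd3g and the adhesion receptor gene Cd2 were below background on all 6 arrays, as were 1 probe set of Bcl11a (1453814_at) and 1 of Bcl11b (1452966_at). The 4 probe sets read between 3.54 and 4.26 on the log2 scale.

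**Figure D1:**
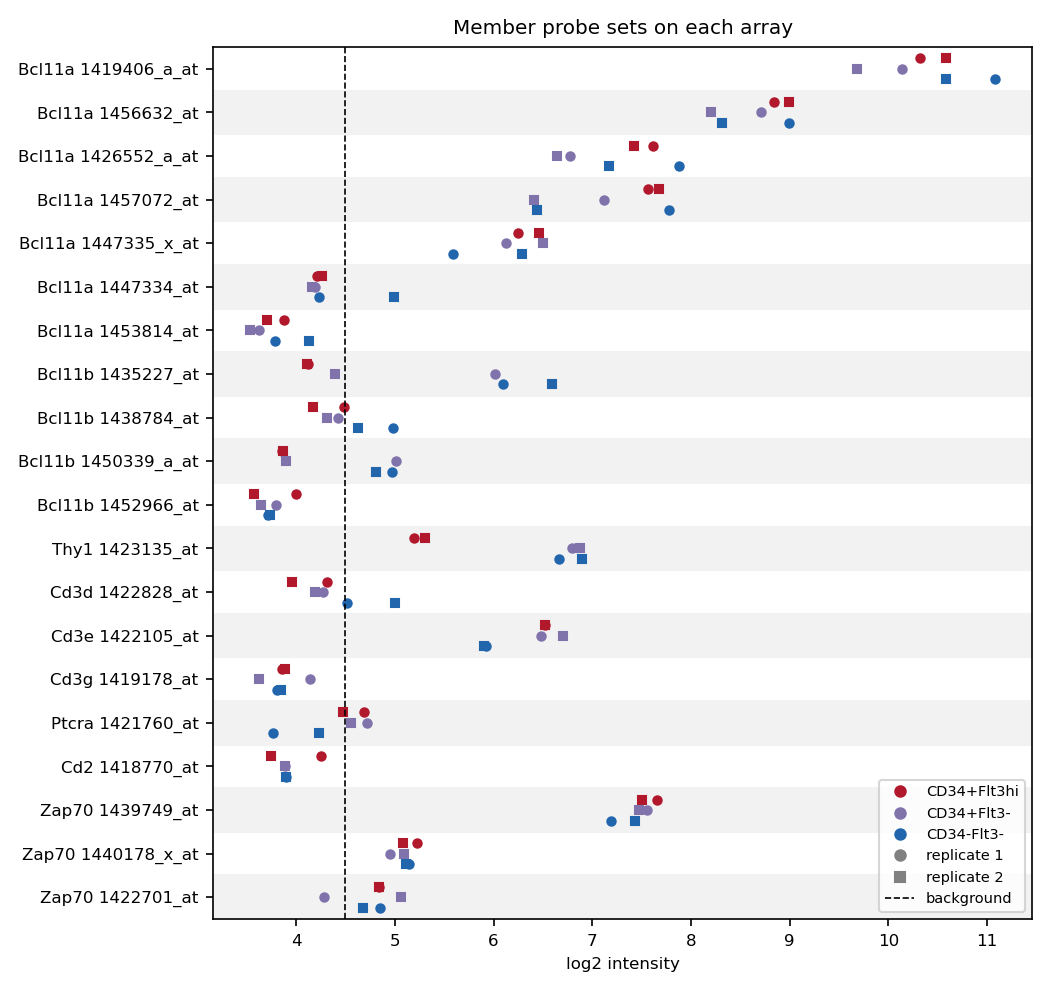
Log2 intensity (horizontal axis) of the 20 probe sets (rows) on each of the 6 arrays, with circles for replicate 1, squares for replicate 2, and the background of 4.5 as a dashed line. The bright Bcl11a and Zap70 probe sets lie right of the line in all 3 groups, Cd3g and Cd2 lie left of it, and the readings of Bcl11b 1435227_at and Thy1 spread by group.

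Across the comparisons, 2 of the 20 probe sets passed the test between CD34+Flt3hi and CD34-Flt3- cells, and both were lower in CD34+Flt3hi cells: Bcl11b 1435227_at and Thy1 1423135_at. The test was limma over all 45037 probe sets and all 6 arrays, with p-values adjusted by Benjamini and Hochberg and a threshold of 0.05. In that comparison 3.51% of all probe sets were called, and 1.84% were called lower. None of the 20 passed between CD34+Flt3hi and CD34+Flt3- cells, where 0.295% of all probe sets were called, or between CD34+Flt3- and CD34-Flt3- cells, where 0.89% were. At an unadjusted p under 0.05 there were 4 in the first of these and 5 in the next, beside 5.36% and 14.0% of all probe sets. Readings of the groups did not overlap for 9 of the 20 between CD34+Flt3hi and CD34+Flt3- cells (38.2% of all probe sets), for 9 between CD34+Flt3hi and CD34-Flt3- cells (44.4%), and for 12 between CD34+Flt3- and CD34-Flt3- cells (41.6%). With 2 arrays against 2, an exact permutation test cannot give a p below 0.333, and none is reported.

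Bcl11b (Entrez gene 58208, at chr12:107910403-108004145 in GRCm38.p6, as for all positions here), the T lineage commitment factor, was lowest in CD34+Flt3hi cells at its brightest probe set. Probe set 1435227_at read 4.12 and 4.11 in CD34+Flt3hi cells, 6.01 and 4.39 in CD34+Flt3- cells, and 6.10 and 6.59 in CD34-Flt3- cells. Both CD34+Flt3hi readings were below background and both CD34-Flt3- readings above it, while the CD34+Flt3- arrays disagreed, with replicate 1 close to CD34-Flt3- cells and replicate 2 just below background. Its mean was 4.11 ± 0.01 for CD34+Flt3hi, 5.20 ± 1.15 for CD34+Flt3- and 6.34 ± 0.35 for CD34-Flt3- cells (SD, n = 2 each). The fitted log2 difference between CD34+Flt3hi and CD34-Flt3- cells was -2.23 ± 0.45 (SE; 95% interval -3.24 to -1.22; limma adjusted p = 0.0259), at least 3.59-fold lower with the CD34+Flt3hi readings set to background. Within code A it was -2.48. The call was lost without either CD34+Flt3hi array (adjusted p = 0.183 and 0.199), without CD34-Flt3- replicate 2 (0.0622), and with the mean of all 4 Bcl11b probe sets (log2 difference -0.92, adjusted p = 0.0818).

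For Bcl11b the place of CD34+Flt3- cells differed between their 2 arrays. Between CD34+Flt3hi and CD34+Flt3- cells the log2 difference of 1435227_at was -1.09 ± 0.45 (SE; 95% interval -2.10 to -0.08; limma adjusted p = 0.874), with -0.28 in code A and -1.90 in code B. Between CD34+Flt3- and CD34-Flt3- cells it was -1.14 ± 0.45 (95% interval -2.15 to -0.13; adjusted p = 0.301), with -2.20 in code A. Fitted with a fixed block for the title code, this last difference passed (-1.80, adjusted p = 0.0193), in a fit that rests on replicate 2 of CD34-Flt3- cells. CD34+Flt3- replicate 2 lay near CD34+Flt3hi cells and replicate 1 near CD34-Flt3- cells.

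The other Bcl11b probe sets were nearer to background. Probe set 1450339_a_at read 3.86 and 3.86 in CD34+Flt3hi, 5.01 and 3.89 in CD34+Flt3-, and 4.98 and 4.81 in CD34-Flt3- cells, so replicate 1 of CD34+Flt3- cells stood apart from replicate 2 here too. Its log2 difference between CD34+Flt3hi and CD34-Flt3- cells was -1.03 ± 0.33 (SE; limma adjusted p = 0.149), at least 1.31-fold lower, and it passed in the fit with the title code block (-1.22, adjusted p = 0.0325). Probe set 1438784_at read 4.48 and 4.17, 4.42 and 4.32, and 4.99 and 4.63 in the same order of groups, with a log2 difference of -0.48 (adjusted p = 0.408) between CD34+Flt3hi and CD34-Flt3- cells. In both, the CD34+Flt3hi readings lay below the CD34-Flt3- readings without overlap. The last, 1452966_at, was below background on every array and differed by 0.06 (adjusted p = 0.925).

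Bcl11a (Entrez gene 14025, at chr11:24076564-24173558) was well above background in all 3 groups at 5 of its 7 probe sets and passed the test in no comparison. Its brightest probe set, 1419406_a_at, read 10.32 and 10.59 in CD34+Flt3hi cells, 10.14 and 9.68 in CD34+Flt3- cells, and 11.08 and 10.58 in CD34-Flt3- cells. CD34+Flt3- cells were lowest, and the readings of the outer groups overlapped. The log2 difference was 0.54 ± 0.24 (SE; 95% interval 0.01 to 1.08; limma adjusted p = 0.921) between CD34+Flt3hi and CD34+Flt3- cells, with 0.90 in code A and 0.18 in code B. It was -0.38 ± 0.24 (adjusted p = 0.524) between CD34+Flt3hi and CD34-Flt3- cells. Between CD34+Flt3- and CD34-Flt3- cells it was -0.92 ± 0.24 (95% interval -1.45 to -0.38; adjusted p = 0.124), with -0.89 in code A. Without CD34-Flt3- replicate 2 this last difference was -1.17 with an adjusted p of 0.0370.

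The further Bcl11a probe sets also passed in no comparison. Probe set 1426552_a_at read 7.61 and 7.43 in CD34+Flt3hi, 6.78 and 6.65 in CD34+Flt3-, and 7.88 and 7.17 in CD34-Flt3- cells, so CD34+Flt3- cells were again lowest without overlap. Its log2 difference was 0.81 ± 0.31 (SE; limma adjusted p = 0.800) between CD34+Flt3hi and CD34+Flt3- cells and -0.81 ± 0.31 (adjusted p = 0.278) between CD34+Flt3- and CD34-Flt3- cells. Probe set 1457072_at read 7.57 and 7.68, 7.12 and 6.41, and 7.77 and 6.44 in the same order of groups. Probe set 1456632_at read 8.85 and 8.99, 8.71 and 8.20, and 8.99 and 8.31. In these last 2 the code A arrays of CD34+Flt3- and CD34-Flt3- cells lay together below the others. Probe set 1447335_x_at, whose x suffix marks probes that can bind other transcripts, read 6.25 and 6.46, 6.13 and 6.5, and 5.59 and 6.29. Probe set 1447334_at read 4.21 and 4.26, 4.19 and 4.17, and 4.23 and 4.99, above background on 1 of the 6 arrays.

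All 7 Bcl11a probe sets had a mean in CD34+Flt3hi cells above that in CD34+Flt3- cells, by 0.04 to 0.86 on the log2 scale, with none past the test. They are not independent, since they read 1 gene from the same RNA. Between CD34+Flt3hi and CD34-Flt3- cells 3 were higher and 4 lower, from -0.38 to 0.52 (limma adjusted p 0.524 to 0.996). The 2 paralogues can be set side by side only as values: between CD34+Flt3hi and CD34-Flt3- cells the brightest probe sets differed by -0.38 for Bcl11a and by -2.23 for Bcl11b, and no test of that contrast between genes was made.

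Thy1 (Entrez gene 21838, at chr9:44043384-44048579) had its lowest readings in CD34+Flt3hi cells, and those of the 2 other groups overlapped. Its only probe set, 1423135_at, read 5.20 and 5.30 in CD34+Flt3hi cells, 6.80 and 6.87 in CD34+Flt3- cells, and 6.67 and 6.89 in CD34-Flt3- cells. All 6 readings were above background, and the CD34+Flt3hi readings overlapped with neither of the other groups. Against CD34-Flt3- cells the log2 difference of CD34+Flt3hi cells was -1.53 ± 0.28 (SE; 95% interval -2.14 to -0.92; limma adjusted p = 0.0148), 2.89-fold lower, with -1.59 in code A. This call was lost without either CD34+Flt3hi array (adjusted p = 0.198 and 0.170), at differences of -1.48 and -1.58. Against CD34+Flt3- cells it was -1.59 ± 0.28 (95% interval -2.20 to -0.98), 3.01-fold lower, with -1.57 in code A and -1.60 in code B. Its adjusted p was 0.0538 over all probe sets, just outside the threshold, 0.0307 when 1 probe set per gene was tested, and 0.00231 in the fit with a fixed block for the title code. Between CD34+Flt3- and CD34-Flt3- cells the difference was 0.06 (95% interval -0.55 to 0.67; adjusted p = 0.956).

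**Figure D2:**
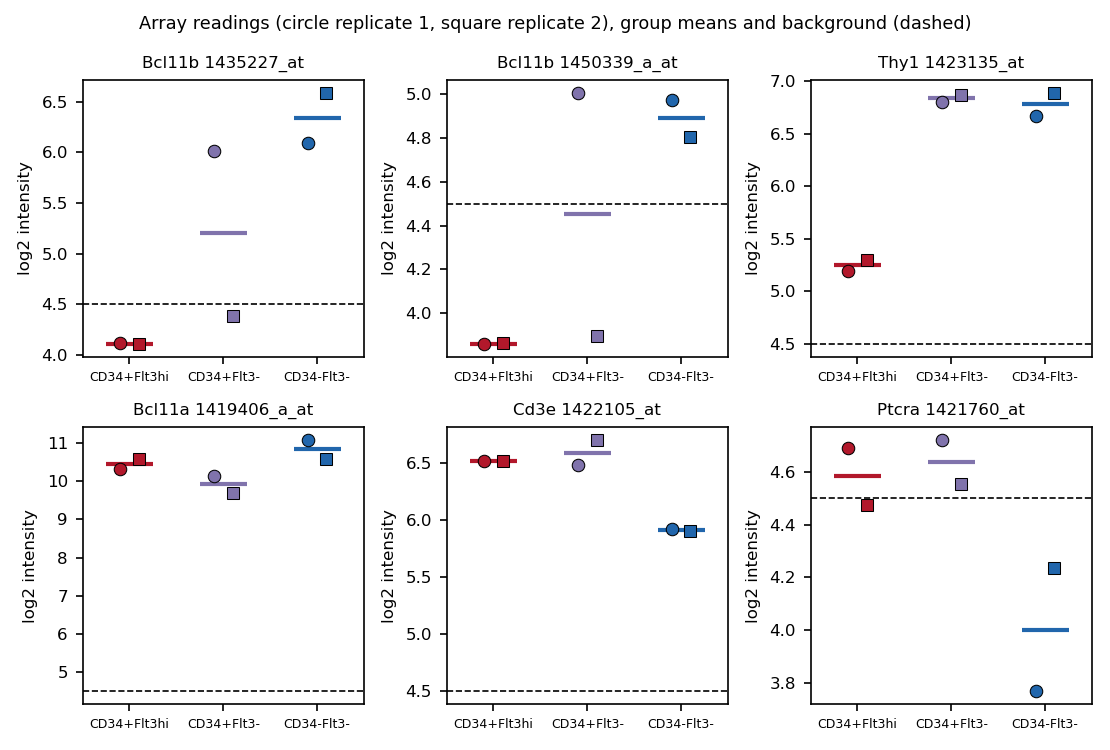
Log2 intensity (vertical axis) of 6 probe sets in CD34+Flt3hi, CD34+Flt3- and CD34-Flt3- cells (horizontal axis), with circles for replicate 1, squares for replicate 2, bars for the mean of 2 arrays and the background of 4.5 as a dashed line. The axes differ between panels. Thy1 reads 5.20 and 5.30 in CD34+Flt3hi cells and at least 6.67 elsewhere, and the 2 CD34+Flt3- readings of Bcl11b 1435227_at, 6.01 and 4.39, lie apart.

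The 3 Cd3 chain genes lie together on chromosome 9, with 1337 bases between Cd3g and Cd3d and 11682 between Cd3d and Cd3e (GRCm38.p6), yet their probe sets read differently. Cd3e (Entrez gene 12501, at chr9:44998735-45009663) read 6.52 and 6.52 in CD34+Flt3hi cells, 6.48 and 6.71 in CD34+Flt3- cells, and 5.92 and 5.90 in CD34-Flt3- cells at 1422105_at. It was above background on every array, and both CD34+ groups lay above CD34-Flt3- cells without overlap. The log2 difference was 0.61 ± 0.27 (SE; limma adjusted p = 0.327) between CD34+Flt3hi and CD34-Flt3- cells and 0.68 ± 0.27 (95% interval 0.07 to 1.29; adjusted p = 0.304) between CD34+Flt3- and CD34-Flt3- cells, so neither passed. Between CD34+Flt3hi and CD34+Flt3- cells it was -0.07 (95% interval -0.68 to 0.54).

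Cd3d (Entrez gene 12500, at chr9:44981769-44987052) read 4.32 and 3.96 in CD34+Flt3hi cells, 4.27 and 4.19 in CD34+Flt3- cells, and 4.51 and 5.0 in CD34-Flt3- cells at 1422828_at. It was above background only on the CD34-Flt3- arrays. Its log2 difference between CD34+Flt3hi and CD34-Flt3- cells was -0.62 ± 0.25 (SE; limma adjusted p = 0.279), at least 1.19-fold, and between CD34+Flt3- and CD34-Flt3- cells -0.53 (adjusted p = 0.393). Cd3g (Entrez gene 12502, at chr9:44969572-44980431) read 3.86 and 3.89, 4.14 and 3.63, and 3.81 and 3.84 in CD34+Flt3hi, CD34+Flt3- and CD34-Flt3- cells, all below background. The means of Cd3d and Cd3e thus lay in opposite order between the outer groups, and neither difference passed the test.

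Ptcra (Entrez gene 19208, at chr17:46755663-46763712), the pre-T cell receptor chain gene, read 4.69 and 4.48 in CD34+Flt3hi cells, 4.72 and 4.56 in CD34+Flt3- cells, and 3.77 and 4.23 in CD34-Flt3- cells. The means of both CD34+ groups were just above background and that of CD34-Flt3- cells below it, with no overlap. The log2 difference was 0.58 ± 0.25 (SE; limma adjusted p = 0.301; at least 1.06-fold) between CD34+Flt3hi and CD34-Flt3- cells and 0.64 ± 0.25 (adjusted p = 0.291; at least 1.10-fold) between CD34+Flt3- and CD34-Flt3- cells. Cd2 (Entrez gene 12481, at chr3:101275908-101287939) read 4.26 and 3.75, 3.89 and 3.89, and 3.89 and 3.90 in CD34+Flt3hi, CD34+Flt3- and CD34-Flt3- cells, below background on every array.

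Zap70 (Entrez gene 22637, at chr1:36761798-36782821), the kinase gene, had group means above background throughout and passed in no comparison. Its brightest probe set, 1439749_at, read 7.66 and 7.51 in CD34+Flt3hi cells, 7.56 and 7.47 in CD34+Flt3- cells, and 7.19 and 7.43 in CD34-Flt3- cells. The CD34-Flt3- readings were lowest, and the log2 difference between CD34+Flt3hi and CD34-Flt3- cells was 0.27 ± 0.27 (SE; 95% interval -0.32 to 0.87; limma adjusted p = 0.712). Probe set 1440178_x_at read 5.23 and 5.08, 4.95 and 5.10, and 5.14 and 5.11 in CD34+Flt3hi, CD34+Flt3- and CD34-Flt3- cells. Probe set 1422701_at read 4.84 and 4.84, 4.28 and 5.06, and 4.85 and 4.67 in the same groups, below background on 1 array. Over the 3 probe sets and 3 comparisons the differences ran from -0.10 to 0.27.

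**Figure D3:**
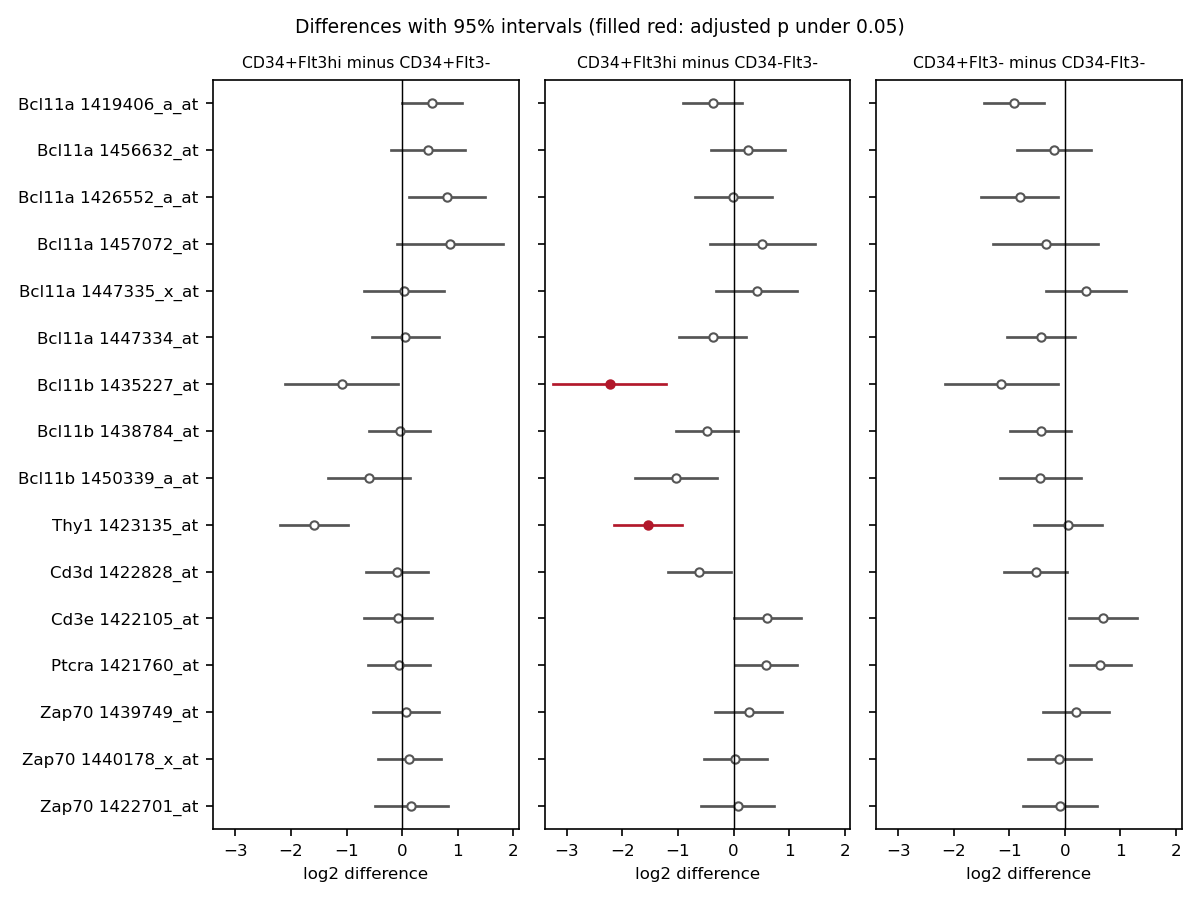
Log2 differences (horizontal axis) of the 16 probe sets with a group mean above background in at least 1 group, with 95% intervals as lines, for the 3 pairs of groups, 1 panel each, with the group named first in the panel title as the first term of the difference. Filled red points passed the adjusted threshold, which only Bcl11b 1435227_at (-2.23) and Thy1 (-1.53) did, both between CD34+Flt3hi and CD34-Flt3- cells, and a value right of 0 is higher in the group named first.

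The median log2 difference of the 20 probe sets was 0.06 between CD34+Flt3hi and CD34+Flt3- cells, with 12 higher and 8 lower, beside a median of 0.02 over all probe sets. It was 0.04 between CD34+Flt3hi and CD34-Flt3- cells (11 higher and 9 lower), beside -0.03 over all. It was -0.15 between CD34+Flt3- and CD34-Flt3- cells (6 higher and 14 lower), beside -0.05 over all. The 3 comparisons share arrays, so their values are not independent of each other.

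Genes with the most similar profile over the 6 arrays were sought for the 4 members whose brightest probe set spanned at least 1 on the log2 scale and was above background in at least 1 group, from 5063 genes under the same limits. Likeness was the root mean square difference of log2 values centred on each gene's own mean. For Bcl11a the nearest were Plekha2 (0.067), Tnfaip8 (0.074), Stat4 (0.075), Taf3 (0.078) and Far1 (0.085). For Bcl11b they were Gdf3, Dusp3 and Fbxo9 (each 0.27), Prkg1 and Med12l (each 0.30). These values are larger than those for Bcl11a, but the measure can grow with the span, which was 2.48 for Bcl11b and 1.39 for Bcl11a. By Pearson correlation, Fbxo9 followed Bcl11b at 0.983 and Plekha2 followed Bcl11a at 0.989. For Thy1 they were Tnik (0.23), F2r and Pafah2 (each 0.24), Ift43 and Tuba8 (each 0.25). For Cd3d, close to background, they were Pcdhb1 (0.069), Zfp385c (0.072), Sh3gl3 (0.078), Gtpbp6 (0.081) and Ulk3 (0.088).

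Among 15 measured genes of a list of 16 early T lineage transcription factors, read at each gene's brightest probe set, 3 rose and 1 fell in CD34+Flt3hi relative to CD34-Flt3- cells, where 5.12% of all genes read this way were called. Gata3, which T cell development in the thymus needs together with Bcl11b, fell. It read 5.17 and 5.0 in CD34+Flt3hi, 5.95 and 5.17 in CD34+Flt3-, and 7.31 and 7.04 in CD34-Flt3- cells. The CD34-Flt3- readings stood above the other groups, and the log2 difference was -2.08 ± 0.33 (SE; limma adjusted p = 0.00743) against CD34-Flt3- cells, with -2.03 in code A. The receptor gene Notch1, whose signal starts the T lineage programme in the thymus, read 9.95 and 10.15 in CD34+Flt3hi, 7.22 and 7.71 in CD34+Flt3-, and 8.27 and 8.06 in CD34-Flt3- cells. It rose in CD34+Flt3hi cells by 1.88 ± 0.27 against CD34-Flt3- cells (limma adjusted p = 0.00474), and by 2.59 ± 0.27 against CD34+Flt3- cells (adjusted p = 0.00323). At the brightest probe sets it was the only gene of the list called against CD34+Flt3- cells, where 0.434% of genes were. This last call was lost without either CD34+Flt3hi array or CD34+Flt3- replicate 1 (adjusted p 0.0603 to 0.108), and the other Notch1 probe set differed by 1.33 against CD34+Flt3- and by 1.29 against CD34-Flt3- cells.

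The myeloid and lymphoid factor gene Spi1 rose by 1.26 ± 0.29 (SE; limma adjusted p = 0.0416), with means of 8.89 ± 0.09 in CD34+Flt3hi and 7.63 ± 0.31 in CD34-Flt3- cells (SD, n = 2 each). Runx3 rose by 1.77 ± 0.30 (adjusted p = 0.0116) in CD34+Flt3hi and by 1.80 ± 0.30 (adjusted p = 0.0298) in CD34+Flt3- cells, each against CD34-Flt3- cells, while its other probe set differed by 0.07 and 0.40. Between CD34+Flt3- and CD34-Flt3- cells 1.31% of genes were called, and Runx3 was the only one of this list at the brightest probe sets. Ets1 was not called at its brightest probe set, which differed by 0.80 between CD34+Flt3hi and CD34+Flt3- cells. Its other 3 probe sets, whose tests are not given here, differed by -0.16 to 2.97 there. The calls of Gata3, Notch1, Spi1 and Runx3 against CD34-Flt3- cells were each lost without either CD34+Flt3hi array (adjusted p 0.0725 to 0.383), and that of Spi1 also without 3 of the other 4 arrays (0.0531 to 0.0615), with quantile normalization again (0.0509) and with only the 4 arrays compared (0.0554). The call of Runx3 between CD34+Flt3- and CD34-Flt3- cells was lost without any 1 of the 4 CD34+ arrays (adjusted p 0.0857 to 0.275), with the mean of its probe sets (1.10, adjusted p = 0.0520) and when the CD34+Flt3hi arrays were both left out (0.0847). The list's median log2 difference was 0.10 between CD34+Flt3hi and CD34+Flt3-, -0.02 between CD34+Flt3hi and CD34-Flt3-, and -0.23 between CD34+Flt3- and CD34-Flt3- cells, beside 0.03, -0.07 and -0.10 over all genes.

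Among 18 measured genes of a list of 19 further T cell surface genes, 3 rose and none fell in CD34+Flt3hi relative to CD34-Flt3- cells, beside 5.12% of all genes called in either direction. They were the adhesion receptor gene Cd44 (1.57 ± 0.26, SE; limma adjusted p = 0.0103), the costimulatory receptor gene Icos (1.5 ± 0.29, adjusted p = 0.0199, at least 2.48-fold) and the TNF receptor family gene Cd27 (1.24 ± 0.24, adjusted p = 0.0221). Icos read 5.99 and 5.84 in CD34+Flt3hi, 3.86 and 4.26 in CD34+Flt3-, and 4.11 and 4.71 in CD34-Flt3- cells, and it also rose against CD34+Flt3- cells (1.85 ± 0.29, adjusted p = 0.0306, at least 2.67-fold), the 1 call of this list there, where 0.434% of genes were called. Between CD34+Flt3- and CD34-Flt3- cells limma called none of the 18, beside 1.31% of all genes, with 3 at an unadjusted p under 0.05, beside 16.6% of all genes. The other 3 Cd44 probe sets differed by 0.28 to 1.15 between CD34+Flt3hi and CD34-Flt3- cells, and with the mean of its probe sets the Cd44 call was lost (0.87, adjusted p = 0.0678). With the mean of its probe sets Icos differed by 0.93 against CD34-Flt3- cells, still called, and by 1.07 against CD34+Flt3- cells, where the call was lost (adjusted p = 0.0654), as it was without an intensity trend (0.0546). Without either CD34+Flt3hi array the 3 calls against CD34-Flt3- cells were lost (adjusted p 0.107 to 0.268), and that of Icos against CD34+Flt3- cells was lost without any 1 of the 4 arrays compared (0.146 to 0.442). Group means of 15 of the 18 genes were above background in CD34+Flt3hi, 10 in CD34+Flt3- and 12 in CD34-Flt3- cells, and 9 genes were above it on all 6 arrays. The coreceptor genes Cd4 and Cd8a were among these 9. In the same groups their means were 5.88, 6.42 and 6.19 for Cd4 and 5.22, 5.50 and 5.32 for Cd8a. The Cd8a probe set has an x suffix, which marks probes that can bind other transcripts. The coreceptor gene Cd8b1 was not among the 9, with means of 4.06, 4.06 and 4.57 in these groups. Cd5 and Il2ra were the 2 genes of the list below background on every array.

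A list of 22 further T cell receptor and signalling genes had 17 measured genes, read at each gene's brightest probe set. Of these, the kinase gene Prkcq alone passed, between CD34+Flt3hi and CD34-Flt3- cells. That comparison called 5.12% of all genes. In the other comparisons limma called none of the 17. Between CD34+Flt3hi and CD34+Flt3- cells 3 had an unadjusted p under 0.05, beside 6.54% of all genes, and 0.434% of all genes were called. Between CD34+Flt3- and CD34-Flt3- cells there were 4, beside 16.6%, and 1.31% were called. Prkcq read 8.28 and 8.46 in CD34+Flt3hi, 8.46 and 8.47 in CD34+Flt3-, and 9.30 and 9.45 in CD34-Flt3- cells, so CD34-Flt3- cells stood above both other groups. It fell by 1.01 ± 0.24 on the log2 scale (SE; limma adjusted p = 0.0472) in CD34+Flt3hi cells, a call that ended when either CD34+Flt3hi array was left out (adjusted p = 0.463 and 0.311) and without 3 of the other 4 arrays (0.0750 to 0.0779). It also ended with array weights (0.0508), quantile normalization again (0.0532), median centring (0.0583), x and s suffix probe sets left out (0.0539) and only the 4 arrays compared (0.0739), so it held in 9 of 19 alternatives. The receptor constant genes Trac, Trbc1 and Trbc2 have no probe set of their own name and are not analysed here. Cd247, the zeta chain partner of the Cd3 chains, read 5.17 and 4.88, 5.39 and 4.67, and 5.67 and 6.22 in CD34+Flt3hi, CD34+Flt3- and CD34-Flt3- cells, with a difference of -0.92 ± 0.33 (adjusted p = 0.211) between the outer groups. The other 3 Cd247 probe sets differed by 0.02 to 0.09 there and showed no fall. Ptprc, the brightest gene of the list, had means of 11.71, 11.16 and 11.73 in the same order of groups. Its other probe set, whose test is not given here, differed by 2.05 between the outer groups. The list's median was -0.25 between CD34+Flt3hi and CD34-Flt3- cells, beside -0.07 over all genes.

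**Figure D4:**
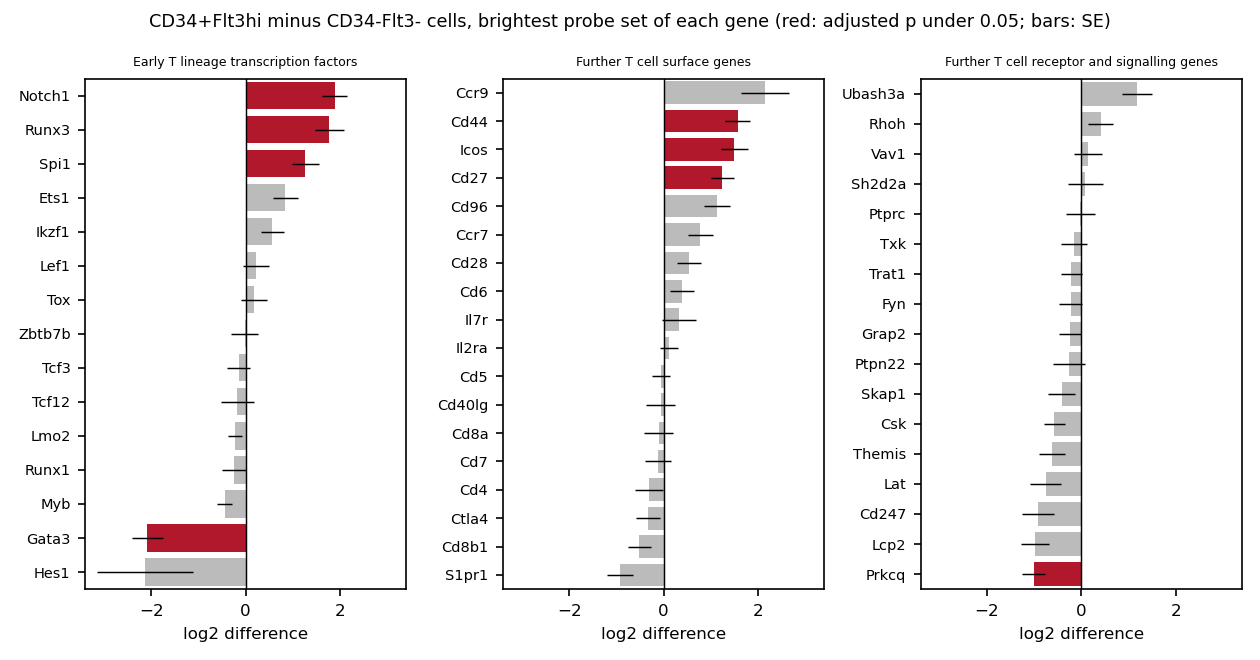
Log2 difference of CD34+Flt3hi minus CD34-Flt3- cells (horizontal axis) for the measured genes of 3 lists, early T lineage transcription factors, further T cell surface genes and further T cell receptor and signalling genes, each at its brightest probe set with the SE of the fit as a black line. Red bars passed the adjusted threshold, from Notch1 at 1.88 to Gata3 at -2.08, and grey bars did not.

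Of genes tied to the known partners and targets of the Bcl11 factors, limma called none in any comparison at each gene's brightest probe set. At an unadjusted p under 0.05 there were 3 NuRD complex genes between CD34+Flt3hi and CD34-Flt3- cells, where 17.9% of all genes passed that limit, 1 between CD34+Flt3- and CD34-Flt3- cells (16.6%), none between CD34+Flt3hi and CD34+Flt3- cells (6.54%), and no globin gene. Of all genes 5.12%, 1.31% and 0.434% were called in these comparisons. Between CD34+Flt3hi and CD34-Flt3- cells Rbbp4 differed by 0.50, Chd4 by -0.62 and Mta3 by 0.56 at the brightest probe sets. Their other probe sets, whose tests are not given here, differed by 0.66 to 1.31, 0.32 to 1.03 and -0.08 to 0.46. All 13 NuRD complex genes were above background in the 3 groups, with a median log2 difference of 0.23 between CD34+Flt3hi and CD34+Flt3-, 0.22 between CD34+Flt3hi and CD34-Flt3-, and -0.02 between CD34+Flt3- and CD34-Flt3- cells, beside 0.03, -0.07 and -0.10 over all genes. Of the 3 embryonic globin genes, Hbb-bh1 was above background, and Hbb-y and Hba-x were below it in every group. Means of Hbb-bh1 were 5.67 ± 0.00 in CD34+Flt3hi, 5.69 ± 0.58 in CD34+Flt3- and 5.51 ± 0.69 in CD34-Flt3- cells (SD, n = 2 each).

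Markers of other lineages also differed between the groups, and their part in the Bcl11b and Thy1 results was not tested. Of all genes, 5.12% were called between CD34+Flt3hi and CD34-Flt3- cells and 1.31% between CD34+Flt3- and CD34-Flt3- cells. The share was 0.434% between CD34+Flt3hi and CD34+Flt3- cells. The summed linear level of 5 measured erythroid genes was 165 to 171 in CD34+Flt3hi, 179 to 468 in CD34+Flt3- and 351 to 1251 in CD34-Flt3- cells. Without the brightest of the 5, the erythroid factor gene Klf1, the sum was 119 to 125, 117 to 220 and 176 to 281. Klf1 had log2 means of 5.50, 6.96 and 8.69 in these groups, and the erythropoietin receptor gene Epor 6.05, 6.80 and 7.35. Alas2, an enzyme gene of haem synthesis, ran in the opposite order (4.56, 4.14 and 3.85) and was above background in CD34+Flt3hi cells only, while Hba-a1 and Slc4a1 had means below background in every group. Klf1 alone was called, with lower readings in CD34+Flt3hi cells relative to CD34-Flt3- cells (-3.19, limma adjusted p = 0.0487). The call was lost without CD34-Flt3- replicate 1 (-1.96, adjusted p = 0.0899), without either CD34+Flt3hi array (0.217 and 0.296), without an intensity trend (0.0971), with median centring (0.0624), with dim probe sets left out (0.0510) and with the mean of each gene's probe sets (0.0665). For 13 B lineage genes the sum was 6691 to 6757, 516 to 630 and 714 to 727 in CD34+Flt3hi, CD34+Flt3- and CD34-Flt3- cells, led by Dntt, with 8, 9 and 10 above background. Without Dntt the sums were 521 to 544, 429 to 492 and 567 to 574. In CD34+Flt3hi relative to CD34-Flt3- cells Dntt was called higher (5.37, limma adjusted p = 8.44e-05) and Pou2af1 lower (-1.01, adjusted p = 0.0337). Pou2af1 had means below background in every group, and its call held in 12 of 18 alternatives. For 13 NK cell genes the sum was 956 to 990, 1328 to 1356 and 435 to 577, with 4, 6 and 5 above background. Without Nkg7, a granule gene and the brightest of the list, these sums were 224 to 235, 231 to 277 and 236 to 276. Nkg7 had log2 means of 9.54, 10.09 and 7.93 and was higher than in CD34-Flt3- cells in CD34+Flt3hi (1.61, limma adjusted p = 0.00776) and in CD34+Flt3- cells (2.15, adjusted p = 0.0111), the only NK gene called. Each call was lost without either array of the CD34+ group compared (adjusted p 0.0576 to 0.220). Klrk1, Klra8, Klre1 and the NK factor gene Tbx21 were below background on all 6 arrays. For 9 plasmacytoid dendritic cell genes the sum was 2639 to 3064, 1231 to 1449 and 1309 to 1425, with 8 above background in each group. For 11 neutrophil and monocyte genes the sum was 3510 to 4459, 3366 to 4675 and 1611 to 1754, with 6, 7 and 7 above background. Without Mpo, the brightest of these, the sums were 1290 to 1629, 1338 to 1344 and 1292 to 1338.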

How the data were processed

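RNA of sorted LSK cells was measured on 6 arrays, after biotin labelling in rounds of in vitro transcription, per the labels' protocols. The deposited intensities were made by the authors with RMA, the robust multi-array average, per the submitters' processing notes, which give no version and do not say which arrays were processed together. RMA removes background and forces all arrays onto 1 distribution, which can hide shifts of the whole array. The values ran from 6.5 to 24174 and were taken as linear because RMA output on a log2 scale stays far lower. This is an inference, and all tests used their log2. Arrays have no depth, and their number limits the precision.

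Of 45101 probe sets, 64 controls were left out. Of the rest, 34945 named 1 gene, 932 several and 9160 none. Symbols were updated through gene identifiers, 99.1% of which matched, and gene positions and promoters are RefSeq's for GRCm38.p6. Background is the 90th percentile of the 27 Bacillus subtilis control probe sets over all arrays. Where the mean of 1 group lay below it, a fold is given as "at least", with that group's readings below background set to it.

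A model of group means was run in limma 3.58.1 (R 4.3.3, package data.table at 1.17.8), 1 row per probe set, with an intensity trend. Residual degrees of freedom were 3, prior ones 7.21, and the median residual SD was 0.24. P-values were two-sided and adjusted over all probe sets. Genes of lists were read at the probe set with the highest mean, in the same fit. The pipeline was tested on simulated data. Figures used matplotlib 3.10.9 in Python 3.11.15.

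The members, lists and rules were chosen with earlier results of these data known. Every member with a group mean above background is given in full. Of each list of T lineage genes, up to 4 genes past the threshold with the smallest adjusted p are named. Alternatives were other fits, normalizations, probe set rules and background limits, and leaving out each array.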

Additional observations from a re-analysis of the deposited data

How the results depend on the processing

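The number of the 20 probe sets called between CD34+Flt3hi and CD34+Flt3- cells was 0 and became 1, each time Thy1, under 10 alternatives: the title code as a fixed replicate block (adjusted p = 0.00231) or a random replicate block (0.0323), no intensity trend (0.0396), array weights (0.00844), quantile normalization again (0.0435), dim probe sets left out (0.0472), the brightest probe set of each gene (0.0307), the mean of all probe sets of each gene (0.0176), only the 4 arrays compared (0.0170), and an adjusted p under 0.10 (0.0538). It ran from 0 to 1 with each array left out. Between CD34+Flt3hi and CD34-Flt3- cells the count of 2 became 1, without Bcl11b, with the mean of all probe sets of each gene, and ran from 0 to 2 with each array left out: 0 without either CD34+Flt3hi array and 1 without CD34-Flt3- replicate 2. Between CD34+Flt3- and CD34-Flt3- cells the count of 0 became 1 with the fixed replicate block (Bcl11b 1435227_at, -1.80, adjusted p = 0.0193), and ran from 0 to 1 with each array left out (Bcl11a 1419406_a_at without CD34-Flt3- replicate 2). The fixed block also called Bcl11b 1450339_a_at between CD34+Flt3hi and CD34-Flt3- cells (-1.22, adjusted p = 0.0325). With the highest control reading as background, 7 probe sets were above it in CD34+Flt3hi and 9 in CD34-Flt3- cells. The cause of these changes was not tested. No called difference changed sign.

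Whether the title code pairs the arrays is not stated. Deviations of the code A arrays from their group means correlated at 0.13 between CD34+Flt3hi and CD34+Flt3-, 0.12 between CD34+Flt3hi and CD34-Flt3- and 0.30 between CD34+Flt3- and CD34-Flt3- cells, over 27358 probe sets. The fixed block fits the code C array exactly, so comparisons with CD34-Flt3- cells then rest on its replicate 2. Over all probe sets it called 481 higher and 252 lower between CD34+Flt3hi and CD34+Flt3- cells, against 84 and 49 without the block, 1898 and 2101 between CD34+Flt3hi and CD34-Flt3- cells, against 751 and 829, and 959 and 1352 between CD34+Flt3- and CD34-Flt3- cells, against 173 and 228. In the last comparison no probe set was called without CD34+Flt3- replicate 2. An array left out leaves its group with 1 array, assumed to vary like the others. Readings near background limit Bcl11b, Cd3d and Ptcra.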
